A study of Mus musculus with 11 samples.

Results

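The machinery that carries new proteins across or into the membrane of the endoplasmic reticulum (ER) was examined in hepatocytes that lacked *Xbp1*. It was taken as 32 genes of 54232 in the count files, chosen by name as subunits of 6 assemblies: the Sec61 channel and its partners (6 genes), the translocon-associated protein complex TRAP (4), the signal recognition particle SRP and its receptor (6), signal peptidase (5), the ER membrane protein complex EMC (9), and the GET pathway for tail-anchored proteins (2). The 32 genes do not cover these assemblies fully. Further subunits of SRP, its receptor, the EMC and the GET pathway were read with the neighbouring factors, and counts per assembly refer to the genes taken here. Hepatocytes were isolated from adult male C57BL/6 mice and their RNA was sequenced. Control mice carried floxed *Xbp1* alleles (*Xbp1* fl/fl), and *Xbp1* LKO mice carried in addition a Cre recombinase driven by the albumin promoter, which deletes *Xbp1* in hepatocytes. Mice of both genotypes were given either chow or the HFS (high fat and sugar) diet, a Western diet with fructose and glucose in the drinking water, for up to 6 weeks. The chow-fed groups had 3 *Xbp1* fl/fl and 2 *Xbp1* LKO libraries, and the HFS-fed groups had 3 of each genotype. The study's legends count a further chow-fed *Xbp1* LKO sample, which was not analysed here. A chow library held the RNA of 1 mouse and an HFS library a pool of 2 mice.

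Secreted and membrane proteins are recognised by SRP as they leave the ribosome, are handed to the SRP receptor, and enter the ER through the Sec61 channel, which TRAP and TRAM assist. Signal peptidase then removes the signal peptide, while the EMC and the GET pathway insert membrane proteins that Sec61 handles poorly. Hepatocytes secrete most plasma proteins, and XBP1, a transcription factor activated by the ER stress sensor IRE1, is known for inducing genes of the secretory pathway.

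Total counts were 19191032 to 23888401 per library. *Xbp1* was at 194 to 301 CPM (read counts scaled to a library of fixed size) in the 6 *Xbp1* fl/fl libraries and at 95.7 to 135 CPM in the 5 *Xbp1* LKO libraries. These counts are of the whole gene, so reads of the deleted exon could not be set apart. CPM is used throughout after scaling by edgeR's TMM factors, which were 0.878 to 0.938 in *Xbp1* fl/fl and 1.049 to 1.193 in *Xbp1* LKO libraries. All 12 hepatocyte markers were detected in every library and formed by far the highest of the cell type sums, but their sum was lower in *Xbp1* LKO hepatocytes without overlap: 140400 to 177600 CPM against 44090 to 80330 CPM on chow, and 121400 to 144700 CPM against 64430 to 96550 CPM on the HFS diet. All 12 had a negative log2 fold change on both diets (medians of -0.68 and -0.63), of which 2 passed the test on chow and 1 on the HFS diet. The marker lists of sinusoidal endothelial cells, Kupffer cells, stellate cells and cholangiocytes summed to at most 152.5, 89.7, 66.3 and 16.3 CPM. The B and plasma cell list summed to 149.4 to 265.9 CPM, and its gene *Sdc1* alone had 144.6 to 264.5 CPM. In chow-fed mice the endothelial sum was 45.7 to 111 CPM in *Xbp1* fl/fl and 27.5 to 34.8 CPM in *Xbp1* LKO libraries, and the stellate sum was 16.6 to 54.7 and 11.8 to 14.4 CPM. The B and plasma cell sum there was 185.2 to 265.9 and 164.1 to 171.2 CPM. Kupffer cell sums on chow were 79.5, 17.9 and 18.6 CPM in *Xbp1* fl/fl and 21.2 and 30.8 CPM in *Xbp1* LKO libraries. All 10 markers had negative log2 fold changes (median -0.47), but only the first control library had a sum above those of the *Xbp1* LKO libraries. That control library was also the highest of the chow-fed libraries in the endothelial and stellate sums. HFS-fed mice had endothelial sums of 88.9 to 152.5 CPM in *Xbp1* fl/fl and 72.7 to 115.7 CPM in *Xbp1* LKO libraries, with all 10 markers at negative log2 fold changes (median -0.45), and Kupffer cell sums of 34.8 to 50.9 and 50.4 to 89.7 CPM, with all 10 at positive ones (median 0.61). No endothelial or Kupffer cell marker passed the test on either diet. Of the 8 cholangiocyte markers 2 had enough counts to be tested. *Sox9* was lower on chow (log2 fold change -1.54, adjusted p = 0.017, edgeR), and *Spp1* was at -0.47 on chow and 1.35 on the HFS diet (adjusted p = 0.74 and 0.2). Cholangiocyte sums in *Xbp1* fl/fl and *Xbp1* LKO libraries were 8.03 to 12.25 and 4.81 to 5.59 CPM on chow. On the HFS diet they were 3.43 to 12.68 and 10.67 to 16.33 CPM. The part of the hepatocyte and other markers in the differences described here was not tested. The second chow-fed *Xbp1* LKO library stood apart, with *Alb* taking 1.67% of its counts against 3.72% in the first and 8.06% to 10.9% in the chow-fed controls.

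The first question was which of these genes differed between genotypes on each diet. In chow-fed mice, 12 of the 32 genes were lower in *Xbp1* LKO hepatocytes and none was higher. They were *Sec61a1*, *Sec61b*, *Tram1*, all 4 TRAP subunits, *Srp9*, *Srp72*, *Spcs2*, *Spcs3* and *Sec11c*, and the falls were from 29.4% to 67.4%. On the HFS diet 5 genes fell, by 25.2% to 55.3%: *Sec61a1*, *Sec61b*, *Tram1*, *Ssr2* and *Spcs2*, each of which had also fallen on chow. The EMC and the GET pathway had no gene past the test on either diet. The test was the quasi-likelihood test of edgeR, adjusted by the Benjamini-Hochberg method over 13303 genes, at a threshold of 0.05, and all 32 genes passed the filter on low counts. Of all genes tested, 3.02% were lower on chow and 2.16% on the HFS diet; among genes with a mean of at least 10 CPM the shares were 4.19% and 3.28%. The count of genes that were higher was 0 also at an unadjusted p under 0.05 and by DESeq2, which called 13 genes lower on chow and 12 on the HFS diet. The median log2 fold change of the 32 genes was -0.29 on chow and -0.36 on the HFS diet, beside 0.0024 and 0.0083 for all genes tested. These are shares of each library's RNA, so fewer cells of a type and less RNA per cell cannot be told apart.

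Levels per library separated the genotypes for more genes than passed the test. On chow, 19 of the 32 genes had every *Xbp1* LKO library below every *Xbp1* fl/fl library, against 15.9% of all genes tested. The count on the HFS diet was 18, against 12.5%. Taking both diets together, all 5 *Xbp1* LKO libraries were below all 6 *Xbp1* fl/fl libraries for 14 genes, against 4.34%, and 11 of the 12 genes that fell on chow were among them. The exception was *Sec11c*. The counts of calls changed with single libraries. On chow most calls were lost without the second *Xbp1* LKO library and fewer without the first, and either omission left 1 library in that group. The median effect size moved little: with each library left out in turn, the median log2 fold change of the 32 genes on chow was -0.37 to -0.25. Values of single genes could move more, as given below for *Emc9* and *Sec11c*. In HFS-fed mice 9 genes passed without the first *Xbp1* LKO library and 3 without the second.

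**Figure D1:**
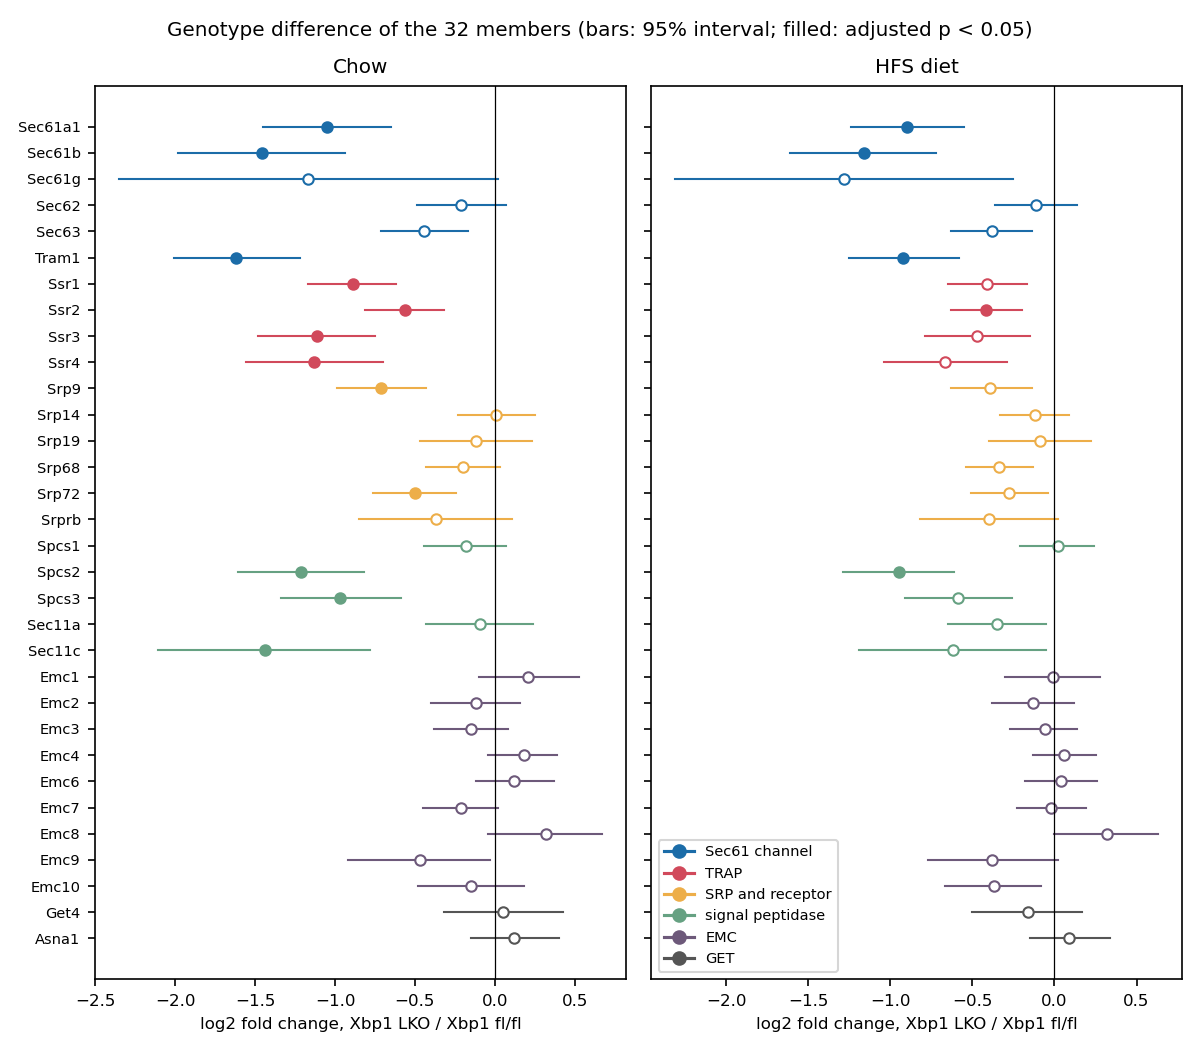
Log2 fold change of *Xbp1* LKO over *Xbp1* fl/fl hepatocytes for each of the 32 genes on chow (left) and on the HFS diet (right), coloured by assembly, with 95% intervals and filled points where the adjusted p was under 0.05. Filled points lie in the Sec61 channel, TRAP, SRP and signal peptidase, all to the left of 0, while the 9 EMC and 2 GET genes lie between -0.47 and 0.32; without TMM scaling the median of all genes shifts to the right by 0.33 on chow and 0.27 on the HFS diet, and 4 EMC genes on each diet pass from below to above 0.

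Because XBP1 binds short DNA motifs, the promoters of the genes were searched for them. RefSeq promoter windows (GRCm38.p6, 250 bases before to 50 after a start) matched 23 of the 32 genes, 7 of them among the 12 that fell on chow. The ER stress element ERSE (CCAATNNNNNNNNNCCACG), ERSE-II (ATTGGNCCACG) and the unfolded protein response element UPRE (TGACGTGG) were in the window of none of the 23 genes on either strand, and in 0.119%, 0.0365% and 0.676% of all 32851 windows. The UPRE core GACGTG was in the windows of *Sec63*, *Srp14* and *Ssr1* and in 6.38% of all windows. The letters CCACG, which end both ERSE forms and lie in the UPRE on its other strand, were in 13 of the 23 genes, in 4 of the 7 that fell, and in 32.8% of all windows. A gene was counted if any of its windows held the motif, whereas the shares are of single windows, so the values are not directly comparable. The promoters of 4 genes are shown, each as the 250 bases before its start, 5′ to 3′, for genes of different response: *Sec61b* of the channel (chr4:47474411-47474660, plus strand), *Ssr1* and *Ssr3* of TRAP (chr13:37994209-37994458 and chr3:65392554-65392803, both minus strand) and *Emc6* of the EMC, which did not pass the test (chr11:73177043-73177292, minus strand). Capitals mark GACGTG or CCACG on either strand.
Sec61b: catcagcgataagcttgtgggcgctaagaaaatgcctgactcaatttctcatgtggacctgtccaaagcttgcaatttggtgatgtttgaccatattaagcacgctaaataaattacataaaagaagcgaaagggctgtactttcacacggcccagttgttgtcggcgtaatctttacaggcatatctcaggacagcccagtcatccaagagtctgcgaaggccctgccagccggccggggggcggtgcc
Ssr1: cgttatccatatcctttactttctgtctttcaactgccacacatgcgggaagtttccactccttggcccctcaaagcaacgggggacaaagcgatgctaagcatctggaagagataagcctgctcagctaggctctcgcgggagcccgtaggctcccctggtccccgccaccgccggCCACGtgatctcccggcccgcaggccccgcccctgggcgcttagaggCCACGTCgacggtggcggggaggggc
Ssr3: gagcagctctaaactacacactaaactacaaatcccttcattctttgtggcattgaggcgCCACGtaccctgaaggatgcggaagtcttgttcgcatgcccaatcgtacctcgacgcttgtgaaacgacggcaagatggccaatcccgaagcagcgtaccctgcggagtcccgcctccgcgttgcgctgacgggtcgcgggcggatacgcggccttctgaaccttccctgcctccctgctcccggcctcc
Emc6: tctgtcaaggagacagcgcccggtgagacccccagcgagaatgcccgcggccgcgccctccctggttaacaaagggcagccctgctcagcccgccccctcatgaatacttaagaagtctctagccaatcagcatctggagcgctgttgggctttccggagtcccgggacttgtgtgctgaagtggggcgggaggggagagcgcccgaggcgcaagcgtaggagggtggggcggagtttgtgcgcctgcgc

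Counted from the start site, CCACG began at base -73 and -26 of the *Ssr1* promoter, and the second of these overlapped GACGTG read on the other strand from base -25. The *Ssr3* promoter held CCACG at base -190. The *Sec61b* and *Emc6* windows held neither motif, although *Sec61b* fell on both diets and *Emc6* did not pass on either. A match is a description of the letters only.

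Of the Sec61 channel and its partners, the pore subunit, one small subunit and TRAM fell on both diets, whereas Sec62 and Sec63 did not pass the test. *Sec61a1* (chromosome 6, 88503579 to 88518905 on the minus strand of GRCm38) encodes the pore through which the chain passes. It was at 193, 218 and 172 CPM in *Xbp1* fl/fl hepatocytes on chow and at 90 and 97 CPM in *Xbp1* LKO hepatocytes. HFS-fed libraries had 203, 184 and 182.1 CPM against 129, 82.5 and 94.9 CPM. No *Xbp1* LKO library reached an *Xbp1* fl/fl library on either diet. The log2 fold change was -1.05 (SE 0.18, adjusted p = 0.0095, edgeR) on chow and -0.9 (SE 0.16, adjusted p = 0.011) on the HFS diet.

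*Sec61b* (chromosome 4, 47474658 to 47483242, plus strand) encodes a small tail-anchored subunit that lies beside the pore, and its promoter is the first of those printed. Its levels were 28.5, 24.2 and 28.9 CPM in *Xbp1* fl/fl hepatocytes on chow and 9.98 and 9.74 CPM in chow-fed *Xbp1* LKO libraries. HFS-fed libraries had 28.5, 29.6 and 26.9 CPM in *Xbp1* fl/fl and 17.1, 8.18 and 12.8 CPM in *Xbp1* LKO hepatocytes. The groups did not overlap, and the 2 chow-fed *Xbp1* LKO libraries were nearly equal while the 3 HFS-fed ones were spread. Its log2 fold change was -1.46 (SE 0.24, adjusted p = 0.0073, edgeR) on chow and -1.16 (SE 0.2, adjusted p = 0.01) on the HFS diet. Of the 50-base windows of its coding sequence, 76.2% also occur in other annotated genes, so its reads could be shared between them.

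*Tram1* (chromosome 1, 13564698 to 13589910, minus strand) encodes TRAM, the translocating chain-associating membrane protein, which contacts signal sequences as they enter the channel. It had the largest fall of the 32 genes on chow. Chow-fed libraries had 149, 156 and 169.7 CPM in *Xbp1* fl/fl and 52.6 and 50.7 CPM in *Xbp1* LKO hepatocytes, a log2 fold change of -1.62 (SE 0.18, adjusted p = 0.0016, edgeR). HFS-fed libraries were at 146, 131 and 129 CPM against 90.7, 56.6 and 67.9 CPM, a log2 fold change of -0.92 (SE 0.15, adjusted p = 0.0079, edgeR). The groups were well apart on both diets, and *Tram1* passed the test whichever library was left out.

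The other 3 partners of the channel were not past the threshold. *Sec63* encodes the J-domain protein that recruits the chaperone BiP to the channel. It was lower in every *Xbp1* LKO library, with 134 and 156 CPM against 186 to 208 CPM on chow and 147 to 171 CPM against 193 to 215 CPM on the HFS diet. The log2 fold changes were -0.44 (adjusted p = 0.07, edgeR) and -0.38 (adjusted p = 0.079), and DESeq2 gave adjusted p = 0.0068 and 0.009. *Sec62*, its partner in translocation after translation, had log2 fold changes of -0.21 (95% interval -0.49 to 0.07) and -0.11 (-0.36 to 0.14). *Sec61g*, the other small subunit, had only 3 to 13 counts per library, and all 50-base windows of its coding sequence occur in other annotated genes, so its level is uncertain. It was at 0.347 to 0.717 CPM against 0.341 and 0.131 CPM on chow and at 0.49 to 0.572 CPM against 0.163 to 0.307 CPM on the HFS diet, without overlap, and it counts among the 14 genes above. Its log2 fold changes were -1.17 (95% interval -2.35 to 0.02, adjusted p = 0.27, edgeR) and -1.28 (-2.31 to -0.25, adjusted p = 0.17), the second being the lowest value of the 32 genes on the HFS diet. Of the genes that fell, leaving out the second chow-fed *Xbp1* LKO library gave log2 fold changes of -1.11 for *Sec61a1* (adjusted p = 0.08, edgeR) and -1.45 for *Sec61b* (adjusted p = 0.084), and *Sec61a1* had adjusted p = 0.052 on the HFS diet without the second *Xbp1* LKO library.

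All 4 subunits of TRAP fell in chow-fed *Xbp1* LKO mice, by 32.4% to 54.3%. On the HFS diet *Ssr2* alone passed the edgeR test, whereas DESeq2 called all 4 lower. TRAP sits beside the Sec61 channel and helps it to open for some signal sequences. *Ssr1* (chromosome 13, 37966605 to 37994217, minus strand), the alpha subunit, was at 134, 122 and 123 CPM in chow-fed *Xbp1* fl/fl and at 70.5 and 65.7 CPM in chow-fed *Xbp1* LKO libraries. Its HFS-fed libraries had 124, 120.2 and 108 CPM against 99.4, 80.5 and 85.7 CPM. This was a log2 fold change of -0.89 (SE 0.13, adjusted p = 0.0045, edgeR) on chow and -0.41 (SE 0.11, adjusted p = 0.062) on the HFS diet. The groups did not overlap on either diet, but the gap between them was narrower on the HFS diet, where the first *Xbp1* LKO library was close to the lowest *Xbp1* fl/fl library.

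*Ssr2* (chromosome 3, 88575876 to 88588419, plus strand), the beta subunit, had the smallest fall of the 4 on chow. Chow-fed libraries had 89.6, 94.1 and 95.9 CPM in *Xbp1* fl/fl and 61.9 and 64.1 CPM in *Xbp1* LKO hepatocytes, and HFS-fed libraries 90.8, 79.6 and 84.8 CPM against 67, 57.3 and 66.5 CPM. *Ssr2* had a log2 fold change of -0.56 (SE 0.11, adjusted p = 0.016, edgeR) on chow and -0.42 (SE 0.1, adjusted p = 0.038) on the HFS diet. The 3 HFS-fed *Xbp1* LKO libraries were closer to each other than for the other subunits. The call on the HFS diet was lost whichever library was left out, with adjusted p from 0.055 to 0.17, and also with the replicate number as a block (0.069), upper quartile factors (0.054), library totals (0.29) and the filter at 1 count (0.078). The call on chow was lost on library totals (0.16), with the compared groups alone (0.096), and without the first or the second *Xbp1* LKO library (0.062 and 0.11).

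*Ssr3* (chromosome 3, 65379655 to 65392623, minus strand), the gamma subunit, was at 278, 298 and 361 CPM in chow-fed *Xbp1* fl/fl and at 142 and 146 CPM in chow-fed *Xbp1* LKO libraries. Its levels on the HFS diet were 294, 265 and 254 CPM against 234, 176 and 178 CPM. *Ssr4* (chromosome X, 73787028 to 73790830, plus strand), the delta subunit, was at 114, 105 and 136 CPM against 55 and 53.2 CPM on chow, and at 98.6, 95.2 and 85.5 CPM against 70.9, 42.5 and 62.5 CPM on the HFS diet. The falls on chow were 53.8% and 54.3%. The log2 fold changes on chow were -1.11 (SE 0.17, adjusted p = 0.0053, edgeR) for *Ssr3* and -1.13 (SE 0.2, adjusted p = 0.0097) for *Ssr4*. On the HFS diet they were -0.47 (SE 0.14, adjusted p = 0.1) and -0.67 (SE 0.17, adjusted p = 0.052), and DESeq2 called both lower (adjusted p = 0.028 and 0.0067). Again no library of one genotype reached the other. Without the second chow-fed *Xbp1* LKO library the adjusted p on chow was 0.059 for *Ssr1*, 0.064 for *Ssr3* and 0.099 for *Ssr4*, and without the first HFS-fed *Xbp1* LKO library *Ssr1*, *Ssr3* and *Ssr4* passed on the HFS diet (adjusted p = 0.043, 0.046 and 0.03, edgeR).

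**Figure D2:**
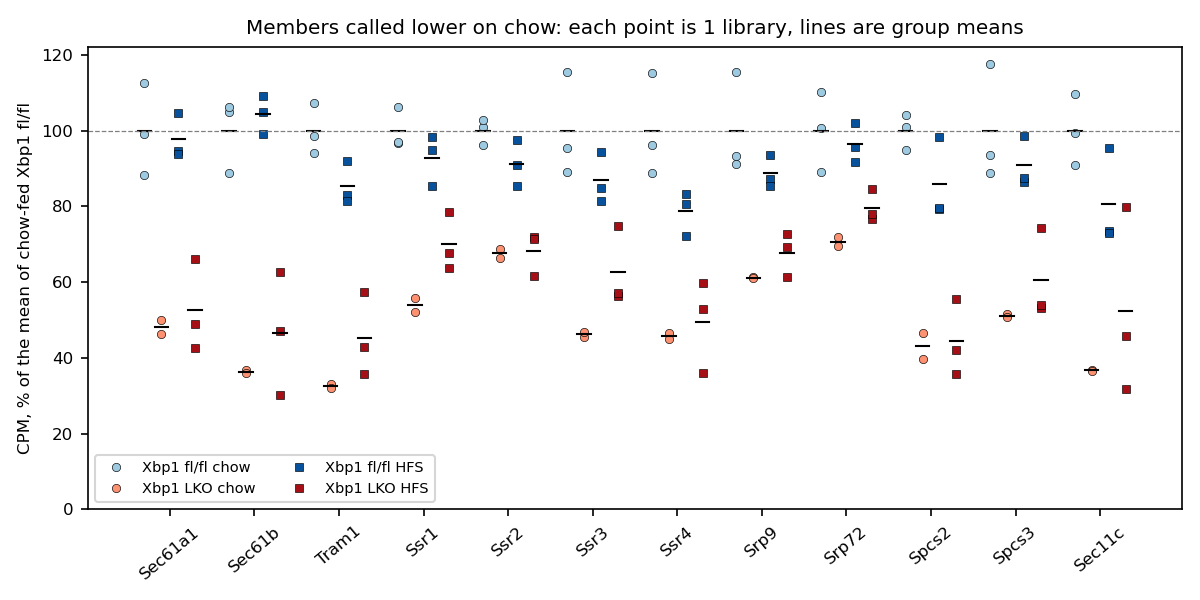
CPM of the 12 genes that fell in chow-fed *Xbp1* LKO mice, as a percentage of the mean of the chow-fed *Xbp1* fl/fl group, with 1 point per library and a line at each group mean. For every gene both chow-fed *Xbp1* LKO points lie below all *Xbp1* fl/fl points, and the highest of the HFS-fed *Xbp1* LKO points is the first library in all 12 genes.

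In SRP and its receptor, 2 of 6 genes fell on chow and none passed on the HFS diet, where 3 had an unadjusted p under 0.05 and DESeq2 called 2. SRP binds the signal peptide through its S domain and slows translation through its Alu domain. *Srp9* (chromosome 1, 182124737 to 182132407, plus strand), which forms the Alu domain with *Srp14*, was at 33.5, 32.8 and 41.5 CPM in chow-fed *Xbp1* fl/fl and at 22.1 and 21.9 CPM in chow-fed *Xbp1* LKO libraries. HFS-fed libraries had 31.3, 33.6 and 30.7 CPM against 26.1, 22 and 24.9 CPM. Its log2 fold change was -0.71 (SE 0.13, adjusted p = 0.011, edgeR) on chow and -0.39 (SE 0.11, adjusted p = 0.078) on the HFS diet. For its partner *Srp14* the groups overlapped: it was at 31 to 35.9 CPM against 32.6 and 33.9 CPM on chow, a log2 fold change of 0.01 (95% interval -0.23 to 0.25). The difference between *Srp9* and *Srp14* was not tested, and 97.6% of the 50-base coding windows of *Srp9* also occur in other annotated genes.

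*Srp72* (chromosome 5, 76974683 to 76999937, plus strand), which binds the SRP RNA together with *Srp68*, was at 133, 151 and 165 CPM in chow-fed *Xbp1* fl/fl and at 104 and 108 CPM in chow-fed *Xbp1* LKO libraries. HFS-fed libraries were at 144, 153 and 137 CPM against 126, 115 and 117 CPM. The log2 fold change was -0.5 (SE 0.12, adjusted p = 0.037, edgeR) on chow and -0.28 (SE 0.11, adjusted p = 0.2) on the HFS diet. The groups did not overlap, but the fall was the smallest of the 12 on chow, and with the replicate number as a block its adjusted p was 0.095. Its call on chow was also lost without the second or the third *Xbp1* fl/fl library (adjusted p = 0.092 and 0.068) and without either *Xbp1* LKO library (0.12 and 0.2), and that of *Srp9* without the second *Xbp1* LKO library (0.1). *Srp9* and *Srp72* also lost their calls on library totals (log2 fold changes of -0.38 and -0.17, adjusted p = 0.058 and 0.31) and in a fit of the compared groups alone (adjusted p = 0.073 and 0.19).

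The other SRP genes were not past the threshold. *Srp68* had log2 fold changes of -0.2 (95% interval -0.43 to 0.03) on chow and -0.34 (-0.54 to -0.13, adjusted p = 0.073, edgeR) on the HFS diet, where DESeq2 gave adjusted p = 0.018. *Srp19*, which helps SRP to assemble, had values of -0.12 (-0.47 to 0.23) and -0.09 (-0.4 to 0.22). *Srprb*, the membrane anchor of the SRP receptor, had log2 fold changes of -0.37 (-0.85 to 0.11) and -0.4 (-0.82 to 0.02). All 50-base windows of its coding sequence occur in other annotated genes as well, so its value is uncertain.

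Signal peptidase divided into subunits that fell and subunits that did not pass. Its complex holds 1 of 2 catalytic subunits, SEC11A or SEC11C, with the accessory subunits SPCS1, SPCS2 and SPCS3. *Spcs2* (chromosome 7, 99837569 to 99863462, minus strand) was at 80.8, 76 and 83.4 CPM in chow-fed *Xbp1* fl/fl and at 31.7 and 37.3 CPM in chow-fed *Xbp1* LKO libraries. HFS-fed libraries had 78.8, 63.5 and 63.8 CPM against 44.5, 28.6 and 33.7 CPM. *Spcs2* had a log2 fold change of -1.21 (SE 0.18, adjusted p = 0.0052, edgeR) on chow and -0.95 (SE 0.16, adjusted p = 0.0079) on the HFS diet. The groups were separate on both diets, and *Spcs2* passed whichever library was left out. A share of 23.2% of its 50-base coding windows also occurs in a pseudogene.

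*Spcs3* (chromosome 8, 54520433 to 54529998, minus strand), a subunit needed for cleavage, was at 74.9, 71 and 94.2 CPM in chow-fed *Xbp1* fl/fl and at 41.2 and 40.7 CPM in chow-fed *Xbp1* LKO libraries. Its levels on the HFS diet were 79, 69.1 and 69.9 CPM against 59.5, 42.5 and 43.2 CPM. *Spcs3* had a log2 fold change of -0.97 (SE 0.17, adjusted p = 0.01, edgeR) on chow and -0.59 (SE 0.15, adjusted p = 0.051) on the HFS diet. The separation held on both diets, with the first HFS-fed *Xbp1* LKO library nearest to the controls. The adjusted p on chow was 0.1 without the second *Xbp1* LKO library, and that on the HFS diet 0.015 without the first *Xbp1* LKO library and 0.009 in DESeq2.

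The 2 catalytic subunits differed in their values. *Sec11c* (chromosome 18, 65800515 to 65817684, plus strand) was at 30.9, 28.3 and 34.1 CPM in chow-fed *Xbp1* fl/fl and at 11.5 and 11.4 CPM in chow-fed *Xbp1* LKO libraries, a log2 fold change of -1.44 (SE 0.3, adjusted p = 0.022, edgeR). *Sec11a* was at 49.8, 53.2 and 61 CPM against 48.1 and 54.4 CPM, a log2 fold change of -0.09 (95% interval -0.43 to 0.24). On chow the *Sec11c* groups were far apart and those of *Sec11a* overlapped. HFS-fed libraries had *Sec11c* at 22.9, 29.7 and 22.7 CPM against 24.8, 9.85 and 14.3 CPM, and its first *Xbp1* LKO library lay within the control range. The log2 fold change there was -0.62 (SE 0.26, adjusted p = 0.24, edgeR) with all libraries and -1.05 (adjusted p = 0.011) without the first *Xbp1* LKO library. *Sec11a* had a log2 fold change of -0.35 (95% interval -0.65 to -0.05) on that diet, and the difference between the paralogs was not tested. *Spcs1* had log2 fold changes of -0.18 (-0.44 to 0.07) and 0.02 (-0.21 to 0.24). The chow call of *Sec11c* was lost without either *Xbp1* LKO library (adjusted p = 0.075 without the first and 0.18 without the second).

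None of the 9 EMC genes passed the test on either diet with edgeR on TMM factors or with DESeq2, and 1 on each diet had an unadjusted p under 0.05. The EMC is an insertase for membrane proteins with weak or terminal membrane segments. Its median log2 fold change was -0.12 on chow and -0.02 on the HFS diet, with single genes from -0.47 to 0.32 and from -0.38 to 0.32. The 95% intervals of all 9 genes lay within -0.92 to 0.67 on chow and within -0.77 to 0.63 on the HFS diet, so falls of the size of *Tram1* or *Sec61b* on chow lay outside them. *Emc3*, the insertase subunit, was at 62.2, 69.8 and 72.8 CPM against 63.1 and 60 CPM on chow and at 65.3, 69.2 and 71 CPM against 65.6, 62.3 and 68.5 CPM on the HFS diet. *Emc6*, which packs against it in the membrane, was at 66.4 to 76.7 CPM against 74.6 and 79.8 CPM on chow and at 68 to 72.2 CPM against 67.6 to 80.5 CPM on the HFS diet. The groups overlapped for both genes on both diets.

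Among the other EMC genes, *Emc9* had the lowest value on chow, with 23.6 to 26.9 CPM against 22.9 and 12.8 CPM, a log2 fold change of -0.47 (adjusted p = 0.23, edgeR). The second *Xbp1* LKO library set this value: with it alone on that side, the log2 fold change was -0.96 (adjusted p = 0.012). *Emc9* was at 23.1 to 27.7 CPM against 17.7 to 21.9 CPM on the HFS diet. *Emc8*, its cytosolic paralog, had the highest log2 fold change, 0.32 on both diets (adjusted p = 0.32 and 0.3), and 30.2% of its 50-base coding windows are shared with other annotated genes. *Emc10*, a lumenal subunit, had log2 fold changes of -0.15 (95% interval -0.48 to 0.18) and -0.37 (-0.67 to -0.08, adjusted p = 0.17). *Emc1* and *Emc7*, which also face the lumen, the cytosolic *Emc2* and the membrane subunit *Emc4* had log2 fold changes from -0.21 to 0.21 on chow and from -0.13 to 0.06 on the HFS diet. Without TMM scaling, *Emc1*, *Emc4*, *Emc6* and *Emc8* were called higher on chow (log2 fold changes of 0.55, 0.51, 0.45 and 0.65), and *Emc8* also on the HFS diet (0.58, adjusted p = 0.049, edgeR).

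The GET pathway delivers proteins with a single membrane segment at their end. *Get4*, a cytosolic factor that passes them on, was at 14.3 to 20.4 CPM against 17.2 and 17.4 CPM on chow and at 14.4 to 18.8 CPM against 14.1 to 17.1 CPM on the HFS diet. *Asna1*, the targeting ATPase, was at 31.9 to 40 CPM against 37.6 and 40.5 CPM on chow and at 33.6 to 39.5 CPM against 36.5 to 43.5 CPM on the HFS diet. The groups overlapped in all of these comparisons. The log2 fold changes were 0.05 (95% interval -0.32 to 0.43) and -0.16 (-0.5 to 0.17) for *Get4*, and 0.12 (-0.15 to 0.4) and 0.09 (-0.15 to 0.34) for *Asna1*. Neither gene had an unadjusted p under 0.05, although library totals in place of TMM gave *Asna1* a log2 fold change of 0.45 on chow (adjusted p = 0.046, edgeR).

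A summary by assembly was made by setting each gene to its chow-fed *Xbp1* fl/fl mean and taking the median over the genes of an assembly in each library. In chow-fed *Xbp1* LKO libraries TRAP was at 51.1% and 49.4%, signal peptidase at 51.5% and 50.8%, and the Sec61 channel at 54.9% and 42.9%. The signal peptidase median was the value of *Spcs3* in both libraries, and the channel median included the uncertain *Sec61g*. Summed CPM, which follows the abundant genes, was 434.1 and 442.5 for the channel, against 699.1, 759 and 751.4 in chow-fed *Xbp1* fl/fl libraries. For signal peptidase it was 183.7 and 188.5 against 290.6, 280.2 and 330.3. SRP and its receptor were at 77.2% and 87.3%. The EMC was at 101.2% and 92%. In HFS-fed mice TRAP was at 73.3%, 58.9% and 62.5% in *Xbp1* LKO against 95.8%, 85.1% and 83.4% in *Xbp1* fl/fl libraries, while the EMC was at 91.2%, 91.2% and 100.3% against 95.6%, 100.7% and 103.9%. These values describe the libraries and were not tested.

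**Figure D3:**
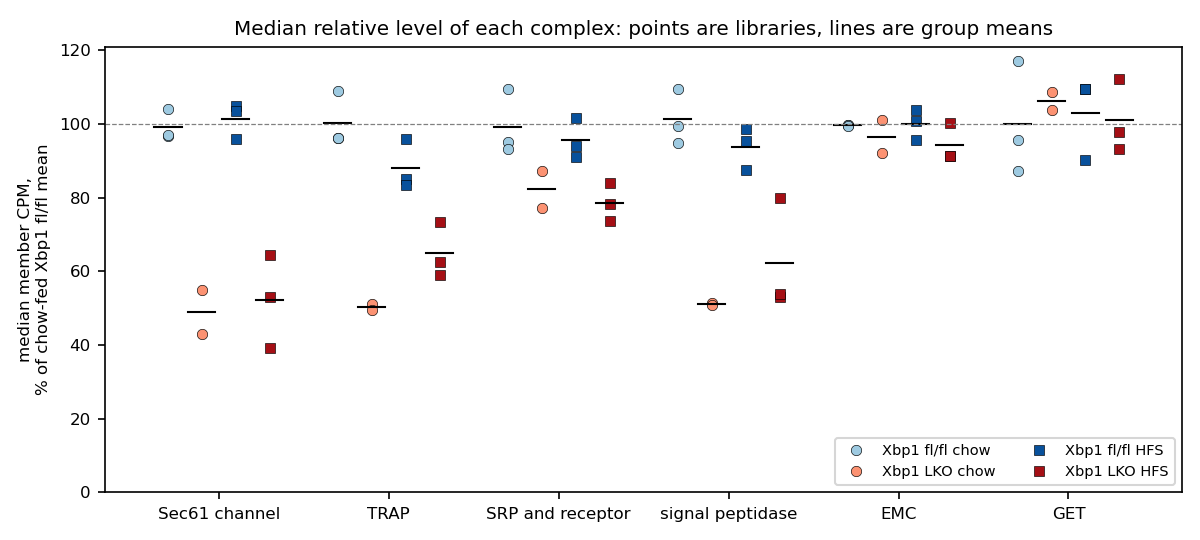
Median over the genes of each assembly of CPM relative to the chow-fed *Xbp1* fl/fl mean, in percent, with 1 point per library and a line at each group mean. The *Xbp1* LKO points of the Sec61 channel, TRAP and signal peptidase lie between 39.1% and 79.8%, and those of the EMC between 91.2% and 101.2%.

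The next question was whether the diet changed these genes within a genotype. In *Xbp1* fl/fl hepatocytes none of the 32 genes differed between diets by edgeR (0 also at an unadjusted p under 0.05 and by DESeq2), where 0.428% of all genes did in either direction. In *Xbp1* LKO hepatocytes none passed by edgeR or DESeq2, against 0.0601% of all genes, and 3 had an unadjusted p under 0.05. These were *Tram1*, *Ssr1* and *Ssr3*, which were at higher values on the HFS diet than on chow, with log2 fold changes of 0.47 (SE 0.17, adjusted p = 0.3, edgeR), 0.38 (SE 0.12, adjusted p = 0.26) and 0.44 (SE 0.16, adjusted p = 0.3). *Tram1*, for example, was at 52.6 and 50.7 CPM in chow-fed and at 90.7, 56.6 and 67.9 CPM in HFS-fed *Xbp1* LKO libraries.

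All 12 genes that fell on chow had a log2 fold change closer to 0 on the HFS diet, a direction that choosing them for their fall on chow favours. The genotype by diet interaction tested this difference and called no gene by edgeR or DESeq2, among the 32 genes or among all genes (0%). The same 3 genes had an unadjusted p under 0.05, with interaction log2 values of 0.7 for *Tram1* (SE 0.23, adjusted p = 0.69, edgeR), 0.49 for *Ssr1* (SE 0.16, adjusted p = 0.71) and 0.64 for *Ssr3* (SE 0.22, adjusted p = 0.71). A smaller genotype difference on the HFS diet was therefore not shown for any of them.

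**Figure D4:**
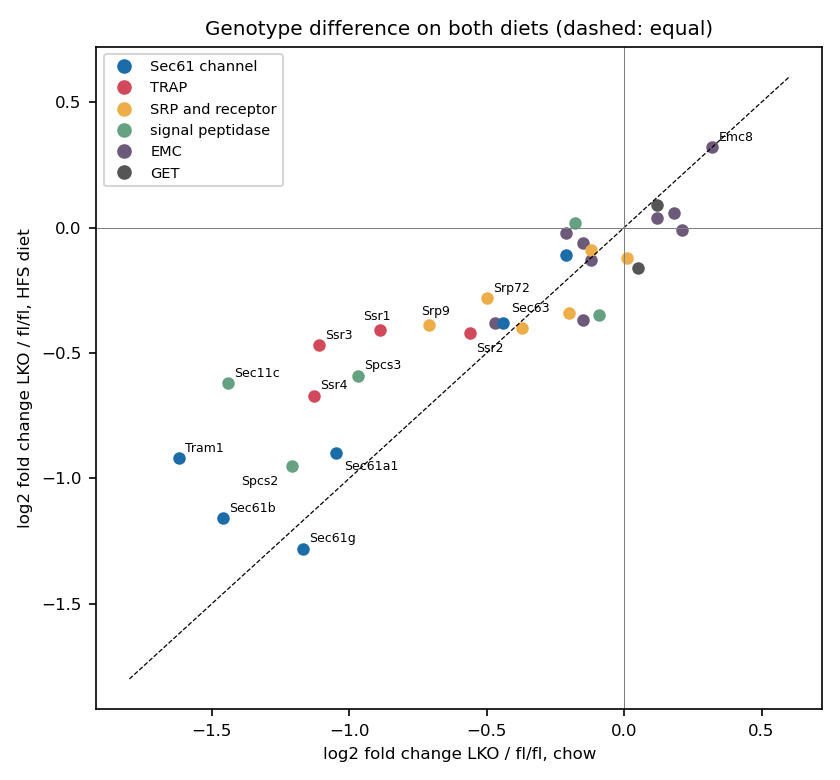
Log2 fold change of *Xbp1* LKO over *Xbp1* fl/fl hepatocytes on the HFS diet (vertical axis) against that on chow (horizontal axis), 1 point per gene coloured by assembly, with a dashed line where both are equal. The 12 genes that fell on chow lie above the dashed line, from -1.62 for *Tram1* to -0.5 for *Srp72* on the horizontal axis, and the EMC genes lie around 0.

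The spread among the 3 HFS-fed *Xbp1* LKO libraries had the same order in gene after gene. The first library was the highest and the second the lowest for all 12 genes that fell on chow. Of the 9 EMC genes, 1 was highest in the first library, and of all 32 genes 16 were. The share of all genes tested with this order was not counted, so it is not shown to be particular to these genes. Of the oligosaccharyltransferase genes described below, *Stt3a*, *Stt3b*, *Rpn1*, *Ddost*, *Dad1* and *Ostc* had the same order. *Rpn2*, *Ost4*, *Krtcap2*, *Tusc3*, *Magt1* and *Tmem258* did not. *Alb* took 5.40% of the counts in the first, 3.33% in the second and 4.38% in the third library, the same order, while *Xbp1* was at 117, 97.3 and 135 CPM, which puts the third library highest. Marker sums of other cells went both ways. In library order the endothelial sums were 115.7, 79.6 and 72.7 CPM and the stellate sums 66.3, 40.7 and 31.9 CPM. B and plasma cell sums were 185.6, 180.4 and 149.4 CPM, also highest in the first library. The first library was lowest in the Kupffer cell sums (50.4, 53.7 and 89.7 CPM) and the cholangiocyte sums (10.7, 16.3 and 14.4 CPM). The part of the *Alb* share and of these markers in this order was not tested. Each of these libraries is a pool of 2 mice.

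Levels were compared between genes as CPM per kilobase of the principal transcript, in chow-fed *Xbp1* fl/fl hepatocytes (mean ± SD, n = 3). TRAP genes were among the highest, with 155 ± 20.9 for *Ssr4*, 106 ± 14.6 for *Ssr3* and 78.4 ± 2.73 for *Ssr2*, but 13.6 ± 0.733 for *Ssr1*, whose principal transcript is 9333 bases long. *Sec61a1* was at 61.2 ± 7.39, *Tram1* at 53.9 ± 3.59 and *Sec61b* at 48.2 ± 4.62; neighbours in this order lay about as far apart as their spread, and the first and the last lay further apart. Signal peptidase ranged from 23.1 ± 3.58 for *Spcs3* to 77.6 ± 4.22 for *Spcs1*, and the EMC from 4.69 ± 1.08 for *Emc8* to 53.2 ± 3.98 for *Emc6*. Genes that fell and genes that did not pass were thus both found at high and low levels per length.

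Genes that work next to this machinery were read from lists of the same pathway. The oligosaccharyltransferase, which adds glycans to chains as they leave the Sec61 channel, had 7 of 12 subunits lower on chow and 8 of 12 on the HFS diet, none higher, with median log2 fold changes of -0.88 and -0.67. Of all genes tested, 3.02% were lower on chow and 2.16% on the HFS diet. *Rpn1*, a ribophorin of this enzyme, was at 192, 163 and 174 CPM against 72.5 and 89.4 CPM on chow and at 155, 138 and 148 CPM against 78.7, 60.9 and 70 CPM on the HFS diet. The genotypes were far apart on both diets, and the log2 fold changes were -1.13 (SE 0.15, adjusted p = 0.0035, edgeR) and -1.07 (SE 0.13, adjusted p = 0.0023). *Ostc*, which tethers the enzyme to the channel, and the catalytic subunit *Stt3a* had log2 fold changes of -1.47 (adjusted p = 0.0028) and -1.02 (adjusted p = 0.0045) on chow and fell on the HFS diet too. *Rpn2* and *Ddost* also fell on both diets. Their log2 fold changes were -0.86 and -0.95 on chow (adjusted p = 0.017 and 0.021, edgeR) and -0.84 and -1 on the HFS diet (adjusted p = 0.011 and 0.0094).

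The 24 other targeting and insertion factors had median log2 fold changes of -0.01 on chow and -0.14 on the HFS diet. Of them 2 fell on each diet, beside 3.02% and 2.16% of all genes tested, and none was higher. The 2 that fell were *Tmem208*, a partner in an SRP-independent route, at -1 on chow and -0.82 on the HFS diet (adjusted p = 0.0084 and 0.011, edgeR), and *Sil1*, a nucleotide exchange factor of BiP, at -0.83 and -0.99 (adjusted p = 0.01 and 0.0027). *Srpr*, the subunit of the SRP receptor that pairs with *Srprb*, had log2 fold changes of -0.33 (adjusted p = 0.12) and -0.36 (adjusted p = 0.062). Of 15 genes known as XBP1 targets in other settings, 3 fell on chow and 2 on the HFS diet, beside the same shares of all genes. Their medians were -0.43 and -0.68, and 12 and 14 of the 15 had negative log2 fold changes. *Pdia4* went the other way on chow (0.52, adjusted p = 0.47, edgeR). Its 2 chow-fed *Xbp1* LKO libraries were far apart, at 231 and 666 CPM, against 313 to 315 CPM in the controls. *Edem1*, of ER-associated degradation, fell on both diets (log2 fold changes of -0.74 and -0.83, adjusted p = 0.022 and 0.008, edgeR), as did *Sec23b*, a coat protein of vesicles leaving the ER (-0.99 and -0.83, adjusted p = 0.012 and 0.015). *Sec24d*, another coat protein, fell on chow (-0.8, adjusted p = 0.043), and *Dnajc3*, a BiP cochaperone, had -0.68 and -0.72 (adjusted p = 0.13 and 0.078).

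**Figure D5:**
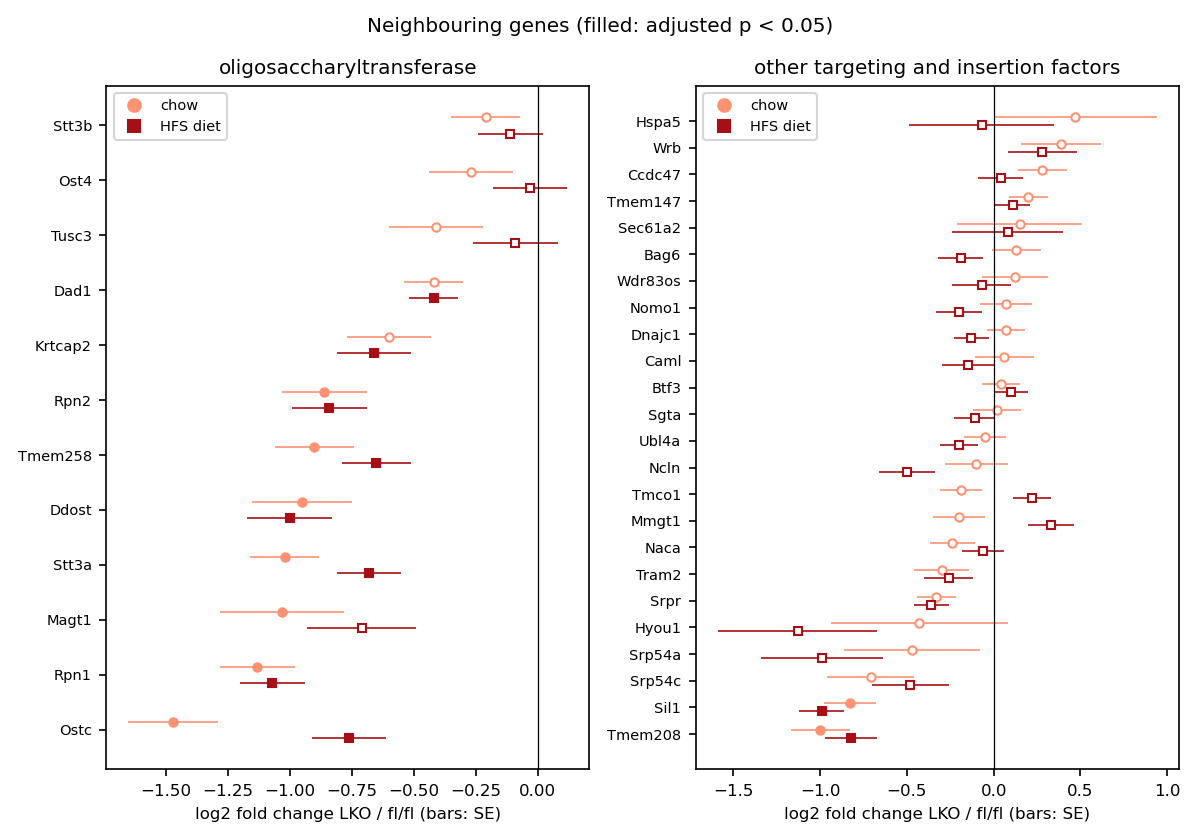
Log2 fold change of *Xbp1* LKO over *Xbp1* fl/fl hepatocytes on chow (circles) and the HFS diet (squares) for the 12 oligosaccharyltransferase subunits (left) and 24 other targeting and insertion factors (right), with SE bars and filled symbols where the adjusted p was under 0.05. Filled symbols lie between -1.47 and -0.42 among the oligosaccharyltransferase subunits, while of the other factors *Sil1* and *Tmem208* are filled.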

How the data were processed

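RNA-Seq of isolated hepatocytes gave 1 file per library. The deposited values are whole-number counts per Ensembl gene, neither normalized nor filtered. The submitters' processing notes name cutadapt 1.13, STAR, HTSeq 0.6.1p1 and mm10, whereas the paper's methods name kallisto and tximport, and which of them made the counts was not settled. The labels name a total RNA kit and the paper a stranded mRNA kit. Symbols and positions came from GENCODE M21 (GRCm38), which held 54165 of 54232 gene identifiers.

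The counts were filtered with filterByExpr (minimum count 10), scaled by TMM factors and tested in edgeR 4.0.16 (R 4.3.3), in 1 quasi-likelihood fit of 4 group means over 11 libraries, and p-values were adjusted by the Benjamini-Hochberg method over 13303 genes. Intervals are at 95%. No counting intervals are given, since the chi-square per degree of freedom between replicates was 25.6 to 93.7, far above counting error. Same-numbered libraries were not treated as pairs: the correlations of the 15 same-numbered pairs of deviations from group means were -0.199 to 0.231. Numbers were taken from the sample titles; the file of the second LKO library on chow bears a different number, and the block and these correlations were not recomputed with it. Alternatives were DESeq2 1.42.0, other scalings and filters, the compared groups alone, a replicate block, and each library left out in turn. The code was tested on simulated counts.

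The members and lists were chosen with earlier results of these data known. Named genes are all members and, from each neighbouring list, up to 3 with the smallest unadjusted p per genotype comparison. *Pdia4* was named in addition because it went the other way on chow. Reads shared between genes were judged from 50-base windows of the annotated coding sequences, searched on either strand in other genes.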

Additional observations from a re-analysis of the deposited data

How the results depend on the processing

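In chow-fed mice the count of genes called lower was 12, and leaving out each library in turn gave 2 to 12, with 2 without the second *Xbp1* LKO library, where the lone library left was assumed to vary like the other groups. On the HFS diet it was 5, and 3 to 9 with a library left out: 9 without the first and 3 without the second *Xbp1* LKO library. DESeq2 gave 12 on the HFS diet. A fit of the compared groups alone gave 9 calls on chow, without *Ssr2*, *Srp9* and *Srp72*, and 5 on the HFS diet. The median over the 32 genes with a library left out was -0.37 to -0.25 on chow and -0.39 to -0.28 on the HFS diet. Library totals in place of TMM factors shifted the median of all genes by 0.33 on chow and 0.27 on the HFS diet; 5 and 1 genes were then called higher and 9 and 4 lower, and the median of the 32 genes was 0.04 and -0.1, while its distance from all genes stayed at -0.29 and -0.37. Among all calls the share that was higher went from 36.4% to 89.5% on chow and from 47.1% to 86.9% on the HFS diet. The cause was not tested. The replicate block gave 11 calls on chow and 4 on the HFS diet and changed no other count of calls; 4 of the 11 libraries correlated best with a library of their own number.

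Of 861 values of single genes under alternatives, 771 kept direction and call, 23 became calls, 34 lost one and 33 changed sign. The last had adjusted p of 0.15 or more. On library totals, log2 fold changes that changed sign were, on chow, 0.18 for *Emc10*, 0.2 for *Emc2*, 0.18 for *Emc3*, 0.12 for *Emc7*, 0.24 for *Sec11a*, 0.12 for *Sec62*, 0.14 for *Spcs1*, 0.21 for *Srp19* and 0.13 for *Srp68*, and on the HFS diet 0.25 for *Emc1*, 0.13 for *Emc2*, 0.19 for *Emc3*, 0.24 for *Emc7*, 0.1 for *Get4*, 0.15 for *Sec62*, 0.14 for *Srp14* and 0.17 for *Srp19*. Upper quartile factors gave 0.03 for *Emc1* and *Emc7* on the HFS diet. With each library left out in turn, the values that changed sign in at least 1 case ran, on the HFS diet, from -0.12 to 0.06 for *Emc1*, -0.01 to 0.11 for *Emc4*, -0.04 to 0.09 for *Emc6*, -0.05 to 0.01 for *Emc7*, -0.06 to 0.09 for *Spcs1* and -0.18 to 0.02 for *Srp19*, and on chow from -0.27 to 0.01 for *Emc2*, -0.05 to 0.22 for *Get4*, -0.03 to 0.08 for *Srp14* and -0.27 to 0.01 for *Srp19*.

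Limits are the 2 chow-fed *Xbp1* LKO libraries, pooled mice on the HFS diet only, and counts that cannot tell a gene from near-identical copies.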
